A study of Mus musculus with 6 samples.

Results

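The 10 genes described here encode the enzymes and regulators with which the retina makes and keeps its long and very long chain fatty acids. They were chosen by name from the RNA-seq tables of control and efavirenz (EFV)-treated 5XFAD mice, and all 10 were among the 19401 genes listed in those tables. The genes are the elongases Elovl4 and Elovl2, the desaturases Fads1 and Fads2, the acyl-CoA synthetase Acsl6, the stearoyl-CoA desaturases Scd1 and Scd2, the fatty acid synthase Fasn, the transcription factor gene Srebf1 and the receptor gene Adipor1. The data comprise 6 RNA-seq libraries, with 3 pools of mice in each group.

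Both groups were 9-month-old 5XFAD mice, a model of Alzheimer's disease, hemizygous on the B6SJL background for transgenes of mutant human amyloid precursor protein and presenilin 1. Treated mice drank water with EFV at a labelled dose of 0.08 mg/kg body weight from 3 to 9 months of age, and the methods of the study name a slightly higher daily dose. The control libraries are labelled untreated, and the methods describe water with the Tween 80 vehicle. EFV is an anti-HIV drug that at a low dose activates CYP46A1, the enzyme that removes cholesterol from neurons. The study asked how this treatment acts on the retina, and the comparison here asks whether the RNA of the fatty acid pathway differed between the groups. Each library was a pool of 1 retina with its retinal pigment epithelium (RPE) from each of 5 to 6 mice, male according to the methods, although the labels say only retina. Spread between libraries is therefore spread between pools, and differences between single mice could not be seen. In this bulk tissue, fewer cells of a type and less RNA per cell cannot be told apart.

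Photoreceptor membranes hold an unusually large amount of docosahexaenoic acid (DHA) and of even longer polyunsaturated fatty acids. Dietary omega-3 precursors are desaturated by FADS2 and FADS1 and lengthened by elongases, of which ELOVL2 works on the precursors of DHA and ELOVL4 makes the very long chains. ACSL6 couples DHA to coenzyme A so that it can enter phospholipids, and ADIPOR1, an adiponectin receptor, is needed for a normal DHA content of photoreceptors. FASN makes palmitate, SCD1 and SCD2 turn saturated into monounsaturated fatty acids, and SREBP-1, the product of Srebf1, is a transcription factor that controls lipogenic genes. Mutations of human ELOVL4 cause a dominant juvenile macular dystrophy, and loss of ADIPOR1 leads to photoreceptor degeneration.

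Libraries held 23455167 to 24590278 expected counts each. The summed level of 8 rod markers, in FPKM (fragments scaled to transcript length and to the total of mapped fragments), was 23568 to 25312. The 12 genes listed as RPE markers were all detected in every library with a sum of 264 to 315. Control replicate 3 stood apart by its lens RNA: 10 lens markers summed to 3255 FPKM there and to 28.3 to 153 in the other 5 libraries. Adipocyte markers summed to 5.60 to 6.54 FPKM, with Adipoq, the gene of adiponectin itself, at 0 to 0.07. By the quasi-likelihood test of edgeR, 0 of 15537 genes tested (0.0%) had an adjusted p of 0.05 or less, the smallest adjusted p was 0.323, and 472 genes (3.04%) had an unadjusted p of 0.05 or less. DESeq2 gave 11 genes at an adjusted p of 0.05, limma on FPKM gave 0, and a Poisson model, in which pools of a group vary only by counting error, gave 2043. The limits of the study are the cutoffs of its own list, an unadjusted p of 0.05 and a fold change of 1.07. The study based its p on the Poisson distribution, so only the cutoffs are shared here. Applied to edgeR, they were passed by 467 genes (3.01%). For 1264 genes (8.14%), library-size-scaled levels did not overlap between the groups.

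None of the 10 genes differed between EFV-treated and control mice after adjustment. Every one of them had an adjusted p of 0.999 in edgeR, and the same count of 0 of 10 was obtained with DESeq2 and limma, against 5 of 10 in the Poisson model. Only Fads2, the desaturase that starts the conversion of essential fatty acids, passed the limits of the study, which makes 1 of 10 genes beside 3.01% of all genes tested, and it was also the only one with an unadjusted p of 0.05 or less (3.04% of all genes). For 0 of 10 genes were the 2 groups separate, beside 8.14% of all genes. The log2 fold change (EFV over control) was above 0 for 3 genes and below 0 for 7, with a median of -0.03 beside 0.0012 for all genes tested. In size, the median log2 fold change was 0.05 for the 10 genes and 0.06 for all genes.

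**Figure D1:**
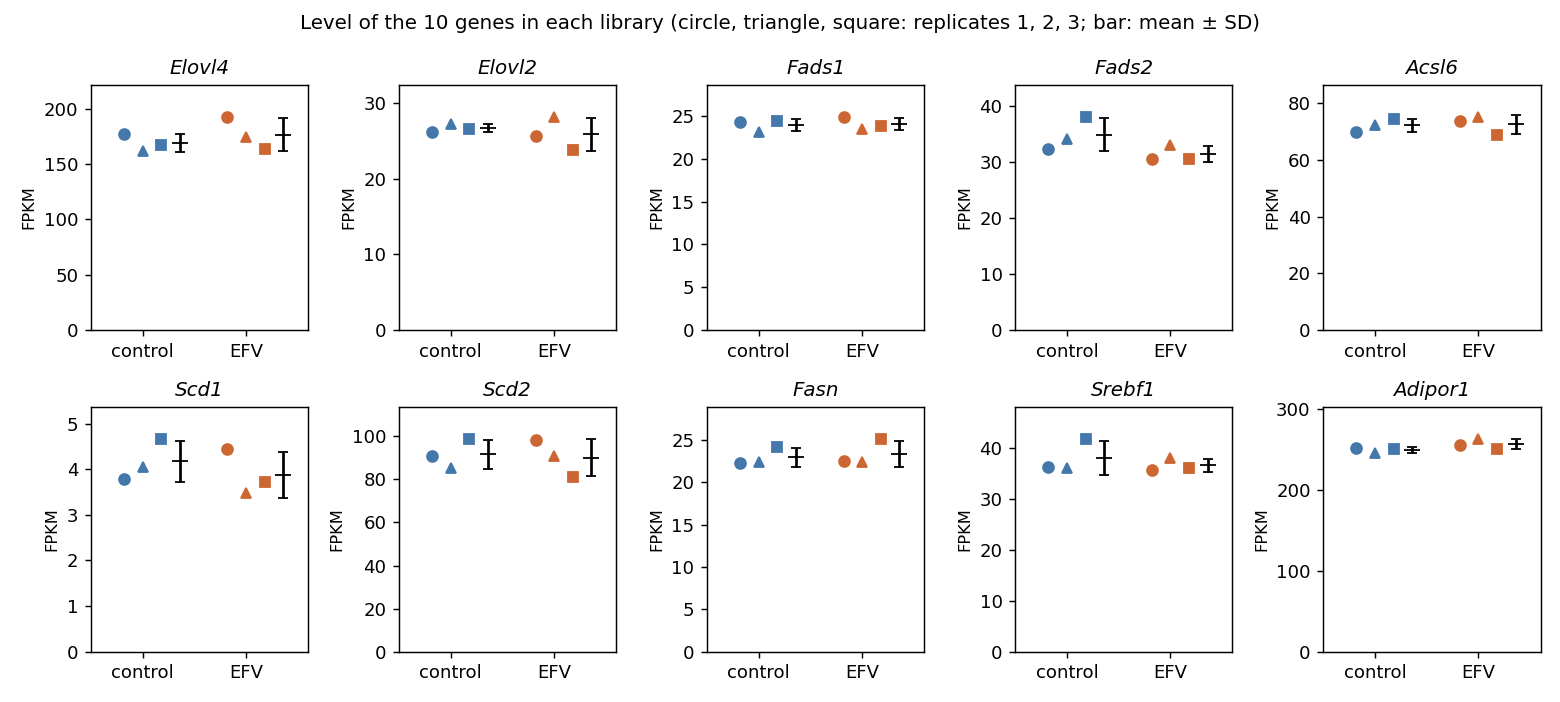
Level (FPKM, linear axis from 0) of each of the 10 genes in the 3 control (blue) and 3 EFV (orange) libraries, with replicates 1, 2 and 3 as circle, triangle and square and the bars giving the mean ± SD. The points of the groups overlap in every panel, and Fads2 shows the lowest EFV points (30.6 and 30.7) under all 3 control points.

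The upstream stretches of Fads2 and Elovl4 are printed here because Fads2 was the only member past the limits of the study and Elovl4 carries out the step that defines the very long chains. Both are the 250 bases before the start site of the RefSeq gene (GRCm38.p6, the coordinates of mm10), written 5′ to 3′ on the minus strand on which both genes lie, with capitals for matches to the Sp1 letters GGGCGG. The bases just after the start site were found near the start of a GENCODE transcript for Fads2 but not for Elovl4.
Fads2 (chr19:10101504-10101753): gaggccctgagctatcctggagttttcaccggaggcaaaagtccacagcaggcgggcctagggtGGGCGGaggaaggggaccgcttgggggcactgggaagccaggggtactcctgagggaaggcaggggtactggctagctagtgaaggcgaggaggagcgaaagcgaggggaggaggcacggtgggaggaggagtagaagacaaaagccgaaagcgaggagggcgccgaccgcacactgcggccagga
Elovl4 (chr9:83806306-83806555): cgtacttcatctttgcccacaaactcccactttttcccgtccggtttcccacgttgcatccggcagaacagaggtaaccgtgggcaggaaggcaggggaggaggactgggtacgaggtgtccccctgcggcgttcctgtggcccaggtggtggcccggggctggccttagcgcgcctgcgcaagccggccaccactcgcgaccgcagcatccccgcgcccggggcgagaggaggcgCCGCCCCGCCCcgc
RefSeq windows of 300 bases, from 250 before to 50 after a start site, were at hand for 7 of the 10 genes and numbered 13. Searched on both strands, GGGCGG was in 10 of these 13 windows (6 genes) beside 35.9% of 32544 windows over all genes, and the NF-Y letters CCAAT were in 7 of 13 (5 genes) beside 37.4%. A sterol response element written as TCACNCCAC was in 0 of 13 beside 1.24%, the E-box CACGTG in 1 of 13 (Elovl4) beside 7.17%, the CRX letters TAATCC in 0 of 13 beside 7.06%, and a direct repeat of the LXR type (AGGTCA, any 4 bases, AGGTCA) in 0 of 13 beside 0.0154%. Several windows come from the same gene and overlap, and a match or its absence describes only these letters in these windows.

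Elovl4 (chr9:83778692-83806305, minus strand) was the most abundant of the enzymes. Its level was 178, 161 and 167 FPKM in control replicates 1, 2 and 3 and 193, 174 and 163 FPKM in EFV replicates 1, 2 and 3. EFV replicate 1 was the highest library and control replicate 2 the lowest, and the groups overlapped (169 ± 8.14 against 177 ± 14.8 FPKM, SD, n = 3 each). Its log2 fold change was 0.05 with a standard error (SE) of 0.06 and a 95% interval of -0.10 to 0.20 (edgeR, unadjusted p = 0.453).

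Elovl2 (chr13:41182382-41220403, minus strand) was less abundant, at 26.2, 27.2 and 26.5 FPKM in control and 25.7, 28.2 and 23.7 FPKM in EFV-treated mice. The control libraries lay close together, whereas the EFV libraries held both the highest and the lowest value (26.7 ± 0.523 against 25.9 ± 2.23 FPKM, SD, n = 3). Its log2 fold change was -0.06 (SE 0.07, interval -0.21 to 0.09, edgeR unadjusted p = 0.389). Without EFV replicate 2 it was -0.14 with an unadjusted p of 0.0360, so that 1 library decided on which side of the limits this gene lay. The ratio of Elovl4 to Elovl2 within a library was 6.77, 5.93 and 6.30 in control and 7.50, 6.17 and 6.88 in EFV-treated mice. The log2 ratio differed by 0.11 between overlapping groups, with an exact two-sided permutation p of 0.4 (0.5 after adjustment over the 3 ratios tested), in a design of 3 against 3 whose smallest possible p is 0.1.

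Fads2 (chr19:10062765-10101503, minus strand) encodes the desaturase that acts on linoleic and alpha-linolenic acid. It was measured at 32.4, 34.2 and 38.1 FPKM in control and 30.7, 33.1 and 30.6 FPKM in EFV-treated mice. EFV replicates 1 and 3 were under every control library, but EFV replicate 2 was above control replicate 1, so the groups overlapped (34.9 ± 2.93 against 31.5 ± 1.41 FPKM, SD, n = 3). The log2 fold change was -0.17 (SE 0.07, interval -0.33 to -0.01), a difference of -10.9% (interval -20.3% to -0.511%), with an unadjusted p of 0.0421 and an adjusted p of 0.999 in edgeR. Fads2 is also on the gene list that the study drew from these same libraries, so its place past the limits is not independent evidence of its direction.

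The highest Fads2 value came from control replicate 3, the library rich in lens RNA. Over the lens markers, 9 of 9 tested genes were lower in EFV-treated mice and past the same limits, beside 3.01% of all genes. The groups overlapped for all 9, and control replicate 3 was the highest library for each. Some of the 9 are on the study's own list from these same libraries, so their direction is not independent evidence. The sum over the lens markers was 42.5, 91.3 and 3255 FPKM in control and 98.9, 28.3 and 153 FPKM in EFV replicates 1, 2 and 3. Without control replicate 3 the log2 fold change of Fads2 was -0.10 with an unadjusted p of 0.177. Among the 12 genes listed as RPE markers, 10 were higher after EFV (median of the list 0.37 on the log2 scale). The 2 lower were Slc16a3 (-0.14) and Rlbp1. Past the limits were 4 of the 12 (Rpe65, Lrat, Kcnj13 and Stra6, named after their values were seen), beside 3.01% of all genes. All 4 are also on the study's own list from these same libraries, so their direction is not independent evidence. Control replicate 2 was the lowest library for each of these 4 and for most of the 12. How far the direction of the list rests on that pool was not tested. Rpe65, the isomerase of the visual cycle, was at 4.65, 2.35 and 5.69 FPKM in control and 6.05, 6.59 and 6.69 FPKM in EFV-treated mice, without overlap (log2 fold change 0.58, edgeR unadjusted p = 0.0437). The summed RPE level, 264 to 315 FPKM in control and 296 to 310 FPKM in EFV-treated mice, came mostly from Rlbp1, which Müller glia also express and which had a log2 fold change of -0.03. Without Rlbp1 the sum was 83.5, 55.1 and 76.7 FPKM in control and 72.0, 87.8 and 89.4 FPKM in EFV-treated mice, with overlapping groups. Slc16a3 made up 20.9 (EFV replicate 1) to 27.5 FPKM (control replicate 1) of that sum, and so differed from the genes lowest in control replicate 2. Whether it marks RPE in this tissue was not tested. The part of lens or RPE RNA in the Fads2 result was not tested.

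The sign of the Fads2 difference was negative in all 17 alternative fits, but its call was not kept in 8 of them. It missed the limit under upper quartile scaling (-0.16, unadjusted p = 0.0510), total counts (-0.15, unadjusted p = 0.0532) and limma on log2(FPKM + 0.1) (-0.15, unadjusted p = 0.0582) or log2(FPKM + 1) (-0.14, unadjusted p = 0.0592). Leaving out control replicate 2 (-0.18, unadjusted p = 0.0711), EFV replicate 1 (-0.15, unadjusted p = 0.112) or EFV replicate 3 (-0.14, unadjusted p = 0.113) also put the unadjusted p over 0.05, as leaving out control replicate 3 did. It passed without control replicate 1 (-0.22, unadjusted p = 0.0124) and without EFV replicate 2 (-0.21, unadjusted p = 0.0271). A choice of scaling or the loss of 1 pool was therefore enough to move this gene across the limit.

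**Figure D2:**
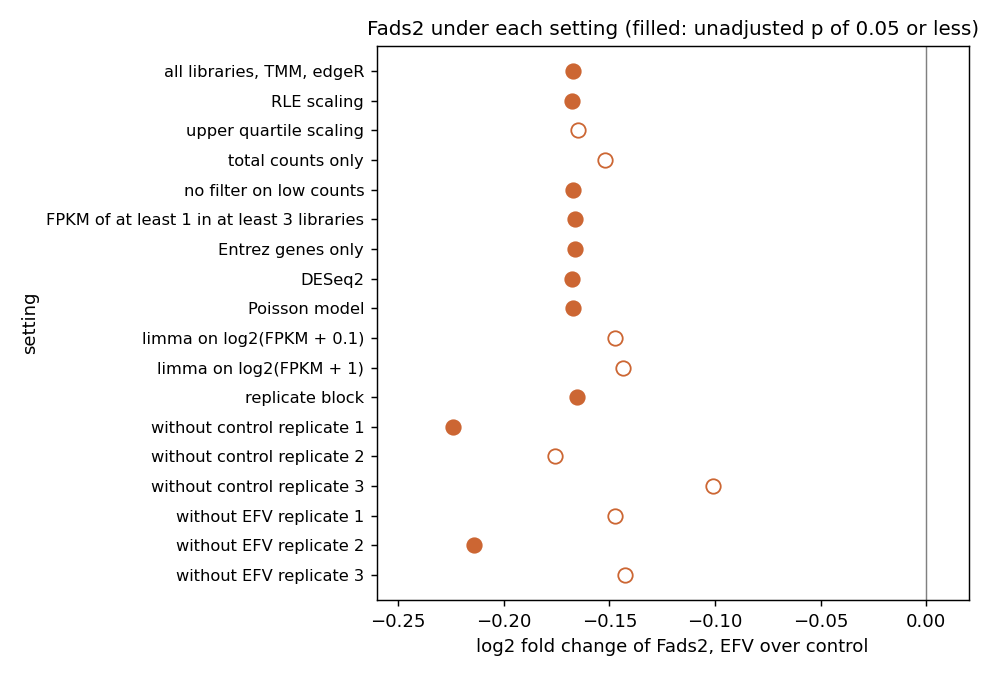
Log2 fold change of Fads2, EFV over control, in the reported fit (top) and under each of 17 alternatives named on the vertical axis; filled points have an unadjusted p of 0.05 or less. All points lie left of 0, between -0.22 and -0.10, and 8 of the alternatives are open points.

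Fads1 (chr19:10182877-10196874, plus strand), the desaturase acting after FADS2, lies 81.4 kb from Fads2 on the same chromosome. Its level was 24.4, 23.2 and 24.4 FPKM in control and 24.9, 23.5 and 23.9 FPKM in EFV-treated mice. All 6 values lay within a narrow band and the groups overlapped (23.99 ± 0.725 against 24.09 ± 0.748 FPKM, SD, n = 3). Between the groups the log2 fold change was -0.01 (SE 0.04, interval -0.10 to 0.08, edgeR unadjusted p = 0.811). The ratio of Fads2 to Fads1 was 1.33, 1.48 and 1.56 in control and 1.23, 1.41 and 1.28 in EFV-treated mice. The log2 ratio differed by -0.15 (EFV minus control), with overlapping groups and an exact permutation p of 0.2 (0.5 adjusted), so that a difference between the 2 desaturases was not shown. The FPKM of Fads2 uses a transcript of 1508 bases, while GENCODE gives 3150 bases for it. Dividing the same counts by either length changes its level relative to other genes but not its fold change.

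Acsl6 (chr11:54303805-54364756, plus strand) was measured at 69.8, 72.2 and 74.6 FPKM in control and 73.8, 75.2 and 68.9 FPKM in EFV-treated mice. The highest and the lowest library were both EFV-treated (72.2 ± 2.39 against 72.6 ± 3.32 FPKM, SD, n = 3). With a log2 fold change of -0.01 (SE 0.05, interval -0.13 to 0.11, edgeR unadjusted p = 0.897), it was the member with the largest p. An antisense gene, Gm12224, overlaps its exons, and the strandedness of the counting is not given in the sources used here, so reads of the 2 genes could not be told apart.

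Of the stearoyl-CoA desaturases, the abundant form in these libraries was Scd2. Scd2 (chr19:44293676-44306864, plus strand), the form that predominates in nervous tissue, was at 90.8, 85.4 and 98.9 FPKM in control and 98.5, 90.7 and 81.2 FPKM in EFV-treated mice. Scd1 (chr19:44394450-44407709, minus strand), the main hepatic form, was at 3.79, 4.05 and 4.67 FPKM in control and 4.44, 3.47 and 3.71 FPKM in EFV-treated mice. For both genes control replicate 3 was the highest library and the groups overlapped. In edgeR the log2 fold change was -0.04 for Scd2 (SE 0.08, interval -0.22 to 0.14, edgeR unadjusted p = 0.617) and -0.12 for Scd1 (SE 0.11, interval -0.37 to 0.12, edgeR unadjusted p = 0.293). Scd1 had the widest interval of the 10 genes and, with 405 counts in its lowest library, the fewest counts.

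Scd2 exceeded Scd1 in each of the 6 libraries, with ratios of 23.9, 21.1 and 21.2 in control and 22.2, 26.1 and 21.9 in EFV-treated mice. The log2 ratio differed by 0.08 between the groups, with an exact permutation p of 0.5 (0.5 adjusted). The genes lie 87.6 kb apart and their transcripts share 145 stretches of 50 bases, 3.03% of those of Scd1 and 2.68% of those of Scd2, and RSEM divided shared reads between them, as their counts were not whole numbers. Scd1 also shares 167 such stretches with Scd3, so the split between these genes is uncertain. With the counts of Scd1 and Scd2 added before the test, the log2 fold change was -0.04 (SE 0.08, edgeR unadjusted p = 0.590).

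Fasn (chr11:120805958-120825166, minus strand) was at 22.2, 22.3 and 24.2 FPKM in control and 22.5, 22.4 and 25.1 FPKM in EFV-treated mice. In both groups replicate 3 was the highest library and the groups overlapped (22.9 ± 1.11 against 23.3 ± 1.55 FPKM, SD, n = 3). This gave a log2 fold change of 0.01 (SE 0.06, interval -0.12 to 0.14, edgeR unadjusted p = 0.873).

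Srebf1 (chr11:60199084-60224186, minus strand) was at 36.2, 36.1 and 41.9 FPKM in control and 35.8, 38.1 and 36.0 FPKM in EFV-treated mice. Control replicate 3 was again the highest library, and the other 5 values lay close together (38.1 ± 3.28 against 36.6 ± 1.24 FPKM, SD, n = 3). Its log2 fold change of -0.07 (SE 0.06, interval -0.22 to 0.07, edgeR unadjusted p = 0.298) was -0.00034 without control replicate 3 (unadjusted p = 0.995). The files assign 6 transcripts to Srebf1, 2 of them assembled for the study, and give no separate level for its SREBP-1a and SREBP-1c forms. Exons of Rai1 on the opposite strand overlap it.

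Adipor1 (chr1:134415378-134433351, plus strand) was the most abundant of the 10 genes and the steadiest. Its level was 252, 245 and 250.8 FPKM in control and 255, 263 and 250.5 FPKM in EFV-treated mice. EFV replicates 1 and 2 were above every control library and EFV replicate 3 was not, so the groups overlapped (249.2 ± 3.72 against 256 ± 6.38 FPKM, SD, n = 3). Treated over control, the log2 fold change was 0.03 (SE 0.04, interval -0.07 to 0.12, edgeR unadjusted p = 0.552). Adipor2, its paralog and the other adiponectin receptor, was at 20.8 ± 1.07 FPKM in control and 21.2 ± 0.751 FPKM in EFV-treated mice (SD, n = 3; log2 fold change 0.01, edgeR unadjusted p = 0.833).

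**Figure D3:**
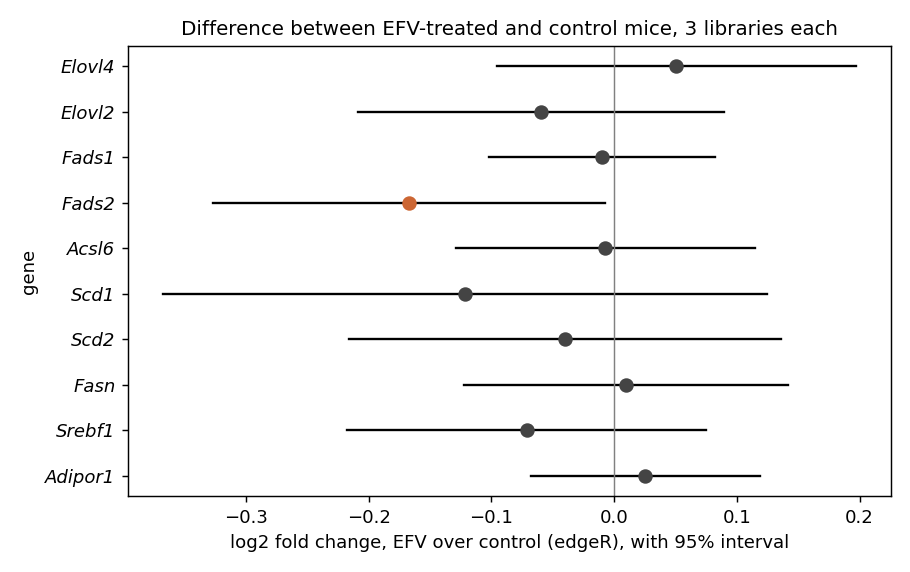
Log2 fold change, EFV over control, of the 10 genes on the horizontal axis (edgeR, 3 libraries per group), with 95% intervals as lines. The interval reaches 0 for 9 genes and stops short of it only for Fads2 (orange, -0.17), and that of Scd1 is the widest.

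For 8 genes, all but Fads2 and Scd1, the intervals lay between -0.22 and 0.20 on the log2 scale. Control replicate 3 held the highest level of 4 of the 10 genes (Fads2, Scd1, Scd2 and Srebf1) and EFV replicate 3 the lowest level of 4 (Elovl2, Fads2, Acsl6 and Scd2). The median log2 fold change of the 10 genes, -0.03 with all libraries, was 0.0083 without control replicate 3 and 0.0033 without EFV replicate 3. It was -0.05 without control replicate 1, -0.03 without control replicate 2, -0.04 without EFV replicate 1 and -0.05 without EFV replicate 2.

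In order of mean level per length over the 6 libraries the genes ran Adipor1 (253 FPKM), Elovl4 (173), Scd2 (90.9), Acsl6 (72.4), Srebf1 (37.4), Fads2 (33.2), Elovl2 (26.3), Fads1 (24.04), Fasn (23.1) and Scd1 (4.02), a 62.8-fold span. Adipor1 was above 99.1% of all genes tested, Elovl4 above 98.4% and Scd2 above 96.4%, while Scd1 was above only 35.7%. Neighbours in this order had ranges that overlapped in 3 places. Srebf1 and Fads2 differed 1.13-fold and kept their order in 6 of 6 libraries, Elovl2 and Fads1 differed 1.09-fold with the order kept in 5 of 6, and Fads1 and Fasn 1.04-fold with the order kept in 5 of 6. The remaining neighbours were 1.26-fold to 5.75-fold apart with no overlap of their ranges. The place of Fads2 rests on the 1508 bases over which it was quantified. Dividing the same counts by the 3150 bases of GENCODE, an alternative chosen after seeing the data, gave a mean of 15.9 FPKM. That put it 9 of 10, below Elovl2, Fads1 and Fasn, with Fasn higher in 6 of 6 libraries. Reads from bases outside the 1508 would not be in these counts, so the lower value is arithmetic and not a second measurement. Over the 6 libraries, the coefficient of variation ran from 2.41% for Adipor1 to 11.4% for Scd1, beside a median of 7.06% for all genes tested.

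The other genes of fatty acid metabolism were examined on a wider list. This set of 59 genes, written with earlier results known, had 55 genes that passed the count minimum, 32 with a log2 fold change above 0 and 23 below, and a median of 0.01. The limits of the study were passed by 2 of the 55 (3.64%, beside 3.01% of all genes), and the groups did not overlap on the scaled level for 5 of 55 (8.14% of all genes). Adjusted p-values were 0.999 for all 55 in edgeR. The 2 genes past the limits were Acsl5 and Insig1.

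Acsl5, an acyl-CoA synthetase best known from intestine and liver, was at 3.73, 2.93 and 3.17 FPKM in control and 4.04, 3.74 and 4.14 FPKM in EFV-treated mice. All EFV libraries were above all control libraries, with control replicate 1 almost level with EFV replicate 2. For Acsl5 the log2 fold change was 0.26 (SE 0.10, interval 0.03 to 0.49, edgeR unadjusted p = 0.0310). It missed the limit with DESeq2 (unadjusted p = 0.0664) and without control replicate 2 (0.19, unadjusted p = 0.115), control replicate 3 (0.23, unadjusted p = 0.0809), EFV replicate 1 (0.25, unadjusted p = 0.0722) or EFV replicate 3 (0.24, unadjusted p = 0.0851).

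Insig1, which retains SREBP precursors in the endoplasmic reticulum when sterols are plentiful, was at 35.4, 29.6 and 31.3 FPKM in control and 28.9, 28.7 and 30.6 FPKM in EFV-treated mice. Control replicate 1 was the highest library and the groups overlapped. The log2 fold change was -0.15 (SE 0.06, interval -0.28 to -0.01, edgeR unadjusted p = 0.0396). Insig1 is on the study's own list as well, so its direction is not independent evidence. It missed the limit without control replicate 1 (-0.08, unadjusted p = 0.178), EFV replicate 1 (-0.13, unadjusted p = 0.102) or EFV replicate 2 (-0.14, unadjusted p = 0.0983), and with total counts (-0.13, unadjusted p = 0.0764) or limma on either FPKM scale.

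By role, the other elongases were 1 higher and 3 lower among 4 tested, with a median log2 fold change of -0.01, and the most abundant was Elovl5 (12.8 ± 1.45 against 12.2 ± 0.444 FPKM, log2 fold change -0.08). The enzymes that complete each elongation cycle were 3 higher and 3 lower among 6, led by Tecr, the reductase of the last step (279 ± 3.49 against 269 ± 12.5 FPKM, log2 fold change -0.07, SE 0.05, edgeR unadjusted p = 0.178). Among the other desaturases, 1 of 4 was higher and 3 were lower (median -0.06). Fads3, the neighbour of Fads2, had a log2 fold change of -0.10 (5.80 ± 0.424 against 5.47 ± 0.860 FPKM), while Degs1, which desaturates ceramide, had -0.01 (28.9 ± 1.10 against 29.0 ± 0.703 FPKM). Scd3 had a log2 fold change of -0.10 in counts but level FPKM means (1.62 ± 0.144 against 1.63 ± 0.0702), and limma on FPKM gave 0.0081, so its direction depended on the unit. Scd4 was under the count minimum, at 0.10 to 0.15 FPKM. No gene of these 3 groups passed the limits.

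The acyl-CoA synthetases other than Acsl6 were 5 higher and 1 lower among 6 (median 0.07), with Acsl3 the most abundant (71.3 ± 0.564 against 74.8 ± 2.89 FPKM, log2 fold change 0.05) and only Acsl5 past the limits. Genes of de novo synthesis other than Fasn were 3 higher and 4 lower among 7 (median -0.0027), led by Acly, which makes cytosolic acetyl-CoA (68.1 ± 1.75 against 66.3 ± 1.95 FPKM, log2 fold change -0.05). Genes of SREBP and LXR regulation were 6 higher and 5 lower among 11 (median 0.01), led by Nr1h2, the gene of LXR beta (40.9 ± 1.72 against 39.8 ± 0.424 FPKM, log2 fold change -0.06). Among the genes of de novo synthesis and of SREBP and LXR regulation, Insig1 alone passed the limits.

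The peroxisomal genes, whose products shorten the last precursor to DHA, were 6 higher and 1 lower among 7 (median 0.03), with Scp2 the most abundant (50.2 ± 1.62 against 51.8 ± 1.41 FPKM, log2 fold change 0.03). Genes listed under uptake and acylation were 7 higher and 3 lower among 10 (median 0.05). That list also held Adipor2, Pnpla2, Mfrp and C1qtnf5, whose products have other roles, and all of these were higher. The highest values were those of C1qtnf5 (0.36) and Mfrp (0.32), which have the same coordinates, so they may not be separate observations. Agpat3, an acyltransferase that places DHA into phospholipid precursors, was the most abundant gene of any of these lists (413 ± 17.7 against 393 ± 34.8 FPKM, log2 fold change -0.09, SE 0.07, edgeR unadjusted p = 0.234). No gene of these groups passed the limits. The 5 genes whose groups did not overlap on the scaled level were Acsl5, Acacb and Pnpla2, all higher in EFV-treated mice, and Tecr and Nr1h2, both lower, and of these Acacb and Pnpla2 are named only because their values had been seen. The genes of cholesterol biosynthesis, also SREBP targets, were 6 higher and 13 lower among 19 with a median log2 fold change of -0.04, and 0 of 19 passed the limits or had an unadjusted p of 0.05 or less in edgeR.

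**Figure D4:**
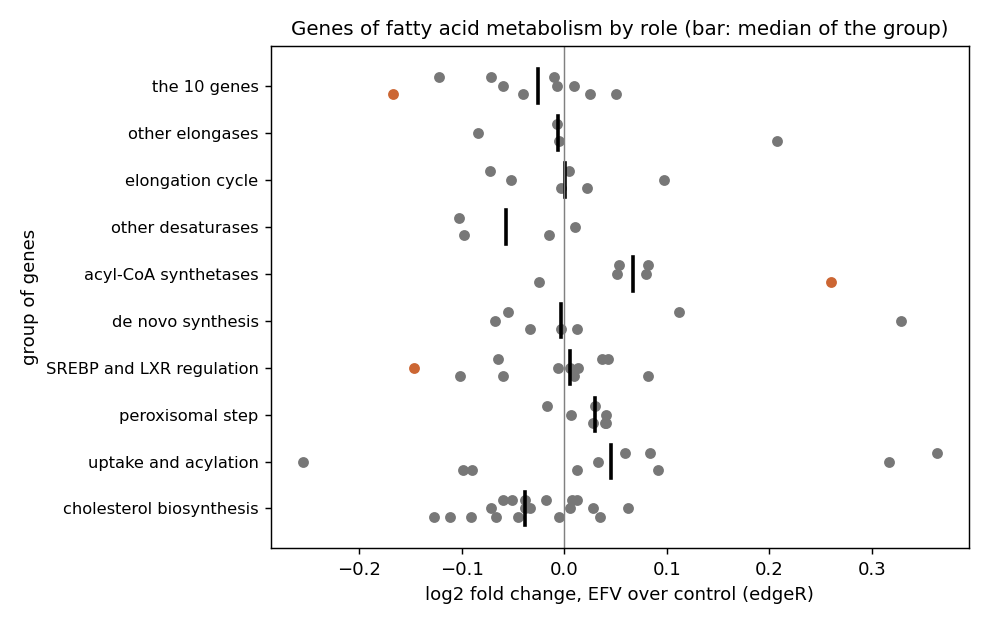
Log2 fold change, EFV over control (edgeR, horizontal axis), of each tested gene of fatty acid metabolism by role on the vertical axis, with the median of each group as a bar and genes past the limits of the study in orange. The medians lie between -0.06 and 0.07, and the 3 orange points are Fads2, Acsl5 and Insig1.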

How the data were processed

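RNA of 6 libraries of pooled retina plus RPE, 3 control and 3 EFV-treated, was enriched for poly-A RNA and copied from random primers. Per the labels, the submitters' processing notes name HISAT2 2.0.4, Bowtie2 2.2.5, RSEM 1.2.12 and mm10. The authors deposited RSEM expected counts per gene, which are not normalized, and FPKM, in which RSEM divided them by transcript length and library total; a gene missing from a table was taken as 0. Read filters, annotation release and strandedness are not given in the sources used here.

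Expected counts were rounded, 15537 genes reaching 10 counts in 3 or more libraries were kept, and edgeR 4.0.16 (R 4.3.3; quasi-likelihood test, TMM scaling, group as the only term, two-sided, Benjamini-Hochberg over all genes tested) gave fold changes, SEs, intervals and p-values. Ratios within a library were compared by exact permutation. At 23455167 to 24590278 counts a library, each member had 405 to 19965 counts. The common biological coefficient of variation, 0.0983, is a value over all genes tested and not for single members. For single members, spread between pools and counting error were not separated. As alternatives, DESeq2 1.42.0, a Poisson model, scaling by RLE, by the upper quartile or by total counts, no count filter, an FPKM filter of 1, Entrez genes alone, limma 3.58.1 on log2(FPKM + 0.1) and log2(FPKM + 1), a replicate block, each library left out, and summed Scd1 and Scd2 counts were tried. Pairs of libraries were all apart beyond counting error (chi-square over degrees of freedom, 5.47 to 13.7). Labels do not say that pools share no mouse or extraction. The p-values compare the group difference with the spread between these pools and take the pools as independent.

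The members and lists were chosen with earlier results of these data known. Named are all 10 members, and of the 59 related genes those past the limits of the study, the most abundant of each role, Fads3, Scd3, Scd4 and Adipor2; of marker lists, sums and the most abundant gene. Adipoq, Acacb, Pnpla2, Mfrp, C1qtnf5, Rpe65, Lrat, Kcnj13, Stra6 and Slc16a3 fall outside this rule and were named after their values were seen. Positions, promoters and motif counts came from RefSeq and GENCODE tables of GRCm38.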

Additional observations from a re-analysis of the deposited data

How the results depend on the processing

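Numbers of calls depended on the model, the scaling and the libraries used. At an adjusted p of 0.05, DESeq2 gave 11 of all genes, the Poisson model 2043, leaving out 1 library 0 to 1 (1 without EFV replicate 1), and the remaining alternatives 0; for the 10 members the Poisson model gave 5 and every other alternative 0. Past the limits of the study, DESeq2 gave 269 genes and the Poisson model 2305, by construction without the spread between pools, against 467, and leaving out 1 library gave 389 to 576. Total counts turned the split of all genes past the limits from 228 higher and 239 lower to 288 and 159, limma to 297 and 192 (log2(FPKM + 0.1)) or 297 and 197 (log2(FPKM + 1)). Members past the limits numbered 0 under upper quartile scaling, total counts and limma with either pseudocount, 2 in the Poisson model (with Scd1, unadjusted p = 0.0272), and 0 to 2 when 1 library was left out: 0 without control replicate 2 or 3 or EFV replicate 1 or 3, and 2 without EFV replicate 2 (with Elovl2). Related genes past the limits numbered 1 with total counts, DESeq2 and limma with either pseudocount, 7 in the Poisson model, and 1 to 3 when 1 library was left out (1 without EFV replicate 3). Why these calls changed was not tested beyond that construction.

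Some values changed sign. Fads1 was 0.0054 with total counts and 0.0064 and 0.0061 with limma, Acsl6 0.0081, 0.0081 and 0.0080, and Degs1 0.00084, 0.0026 and 0.0025, all near 0. Scd3 turned from -0.10 to 0.0081 and 0.0048 with limma. Dividing the same counts by the GENCODE length moved the mean level of Fads2 from 33.2 to 15.9 FPKM, by arithmetic alone. With 1 library left out, log2 fold changes ranged from -0.014 to 0.11 for Elovl4, -0.14 to 0.0040 for Elovl2, -0.033 to 0.0026 for Fads1, -0.043 to 0.035 for Acsl6, -0.11 to 0.035 for Scd2, -0.040 to 0.048 for Fasn, -0.0038 to 0.048 for Adipor1, -0.045 to 0.017 for Degs1 and -0.041 to 0.047 for Adipor2. Of 172 member values, 144 kept direction and side of the limits, 18 changed sign and 10 crossed the limits; no other sign of a member changed. Of related genes, Elovl5 passed the unadjusted limit without control replicate 3 (-0.18, unadjusted p = 0.0240), and Agpat3 (-0.17, unadjusted p = 0.0145) and Fads3 (-0.24, unadjusted p = 0.0292) without EFV replicate 2. The cause was not tested.

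Same-numbered libraries of the groups correlated at 0.126, 0.0795 and 0.1001 in their deviations from the group means. The largest correlation with another number was -0.0265, -0.0066 and -0.0066 for replicates 1, 2 and 3, so each correlated best with its own. Deviations cancel out within a group, so positive same-number values push the others below them on average. The contrast is therefore partly built in. The labels do not say what the number stands for, and whether same-numbered pools shared handling was not tested. A replicate block gave 514 genes past the limits against 467, kept Fads2 past them (-0.17, unadjusted p = 0.0432) and changed no member's call.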
